A study of Mus musculus with 6 samples.

Results

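Stem cells at the base of intestinal crypts are described here through 10 genes that mark them or that Wnt signalling induces there, namely Lgr5, Olfm4, Ascl2, Smoc2, Axin2, Rnf43, Znrf3, Tnfrsf19, Ephb2 and Ephb3. They were taken by symbol, with every probe set that the platform annotation pairs with 1 of these symbols alone. Of the 10 genes, 9 had a probe set, and together they had 17 of the 45037 probe sets tested. No probe set was paired with Ephb2 in the annotation used, and that gene was not analysed here. Of the 9 genes, 3 had 1 probe set, 4 had 2 and 2 had 3.

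The series compared intestinal epithelial cells (IEC) of C57BL/6 mice that lack caspase-8 in the gut epithelium with those of floxed control mice, on Affymetrix 3′ expression arrays, with 3 samples per group that the labels call biological replicates. The caspase-8 deficient mice carry the genotype casp8 flox, villinCre positive, and the controls casp8 flox, villinCre negative, so both groups carry the floxed gene and the deficient mice alone carry the Cre transgene, whose own effect cannot be told apart from that of the deletion. The villin promoter drives Cre throughout the intestinal epithelium, which the labels do not divide into crypt and villus cells, and the labels give neither the gut segment nor the age of the mice. Values are log2 expression as the authors deposited it.

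Wnt ligands act on crypt base cells by stabilising beta-catenin, which turns on target genes with the TCF family of DNA-binding proteins. LGR5 binds R-spondins, which raise the number of Wnt receptors by taking away the ubiquitin ligases RNF43 and ZNRF3. RNF43, ZNRF3 and AXIN2 are themselves induced by the pathway and dampen it. Paneth cells lie between the stem cells, and goblet cells and enterocytes descend from them.

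The arrays resembled one another closely, with correlations over all probe sets of 0.984 to 0.994 among deficient arrays, 0.988 to 0.993 among controls and 0.977 to 0.991 between groups. The median difference over all probe sets was 0.012 on the log2 scale. Enterocyte markers averaged 12.65 to 12.72 on the deficient arrays and 12.37 to 12.46 on the control arrays, among them Vil1, which encodes villin, at 12.84, 12.87 and 12.89 in deficient cells and 12.58, 12.58 and 12.59 in controls. Casp8 itself read 9.27, 9.56 and 10.40 in deficient cells and 10.53, 9.74 and 10.24 in controls on its 1 probe set, a difference of -0.43 (95% interval -1.13 to 0.28, limma adjusted p = 0.57). Which exons the deletion takes out is not stated, so this probe set cannot check the genotypes. Between its 3′ and 5′ control probe sets, Gapdh differed on the log2 scale, a sign of RNA degradation where it is large, by 0.29, 0.21 and 0.23 on deficient arrays 1, 2 and 3 and 0.68, 0.93 and 0.22 on control arrays 1, 2 and 3. Control 3 therefore matched the deficient arrays in this measure, and some results of the genes described here are also given against it alone. The lists of other genes are not given against it.

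In caspase-8 deficient cells the brightest probe set of each of the 9 genes had a lower mean than in controls, with a median difference of -0.67 on the log2 scale against 0.022 over all 18193 genes. The differences ran from -1.62 for Lgr5 to -0.03 for Ascl2. Of the 17 probe sets, 0 passed an adjusted p of 0.05 in limma over the whole table, in which 0.318% of all probe sets passed. At an unadjusted p under 0.05, 8 of 17 were lower and 0 higher, against 7.37% lower among all probe sets. In 8 of 17, from 7 genes, all deficient arrays lay below all controls, as they did in 9.75% of all probe sets. A difference below 0 was found in 15 of 17, against 47.6% of all. In a preparation of mixed cells, fewer stem cells and less of each RNA per stem cell cannot be told apart.

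**Figure D1:**
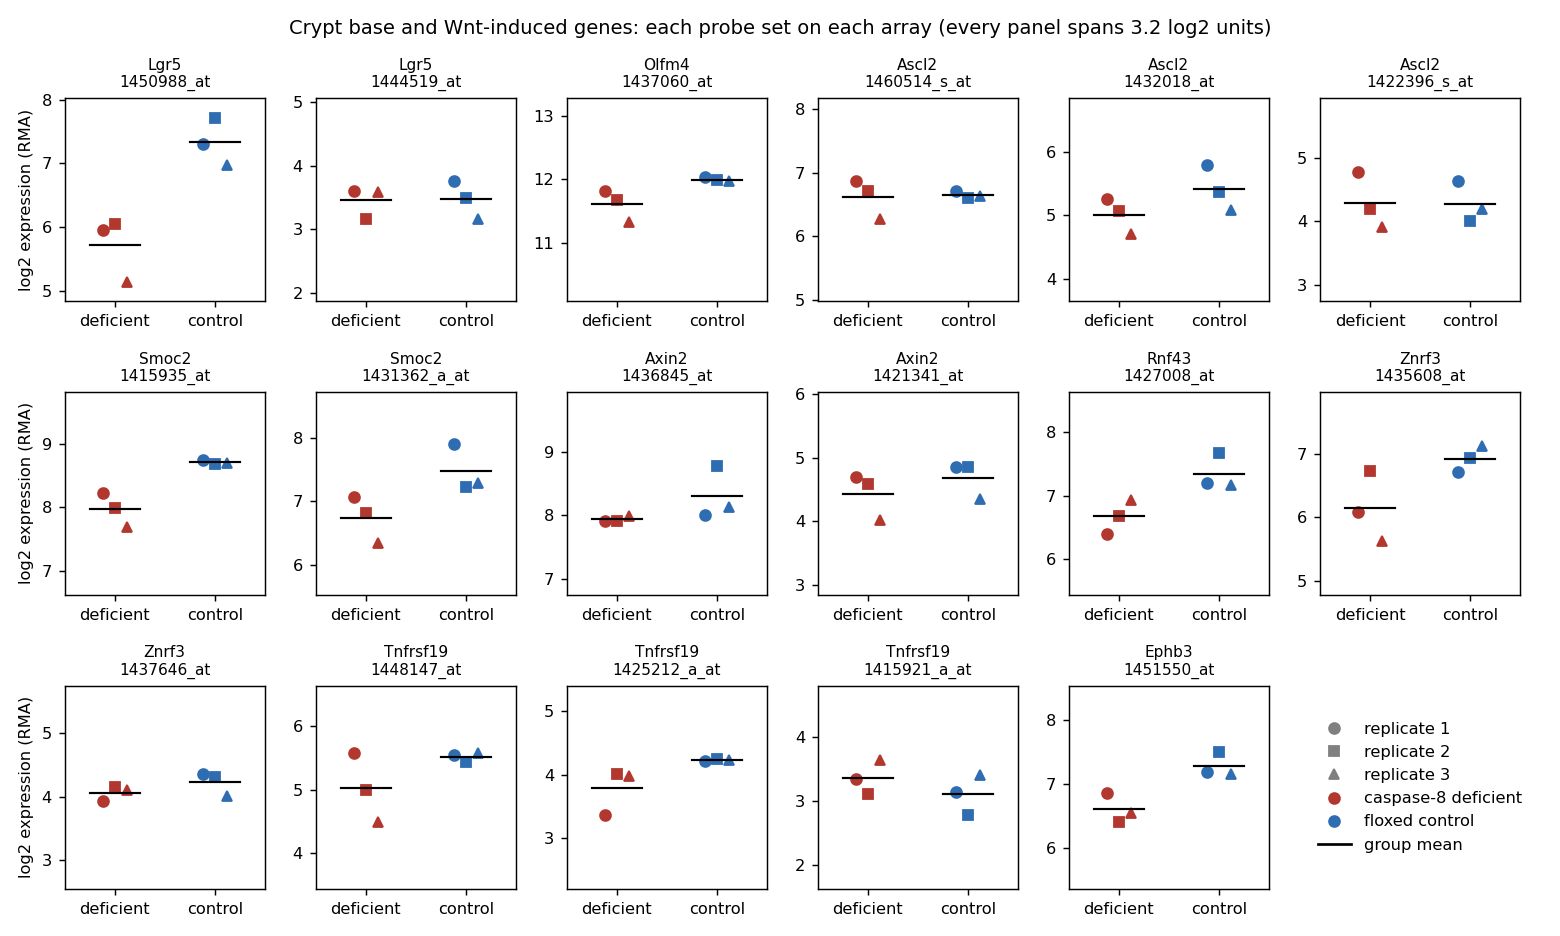
Log2 expression of the 17 probe sets (1 per panel) on each array, caspase-8 deficient in red and floxed control in blue, with group means as lines and replicates by marker shape; every panel spans the same number of log2 units. The Lgr5 probe set 1450988_at shows the widest gap, with deficient arrays at 5.14 to 6.05 and controls at 6.97 to 7.72.

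Lgr5, the R-spondin receptor that defines crypt base stem cells, stood lowest relative to controls. Its probe set 1450988_at read 5.96, 6.05 and 5.14 in deficient cells, against 7.30, 7.72 and 6.97 in controls. The groups did not overlap, and the highest deficient array lay 0.92 below the lowest control. The difference was -1.62 (SE 0.27, 95% interval -2.25 to -0.98), or 3.07-fold lower, at a limma adjusted p of 0.0698 over 45037 probe sets. With 1 probe set per gene the same values gave an adjusted p of 0.0488 over 18193 genes, where 0.775% of genes passed. Against control 3 alone the deficient mean was lower by a difference of -1.25.

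The other Lgr5 probe set, 1444519_at, read 3.60, 3.17 and 3.60 in deficient cells and 3.77, 3.50 and 3.17 in controls. These values lie well under 4.87, the median of all probe sets, and the groups overlapped, with a difference of -0.02 (95% interval -0.46 to 0.41). The difference between the 2 probe sets' group differences was -1.59 (SE 0.33, 95% interval -2.34 to -0.85). It did not pass when adjusted over all 16752 within-gene pairs (limma adjusted p = 0.23, unadjusted p = 0.0011). Averaged over both probe sets, Lgr5 was 1.77-fold lower (limma adjusted p = 0.0881).

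Smoc2, a secreted matricellular protein of crypt base stem cells, had a pair of probe sets with nearly equal differences, the closest of the 8 pairs compared. Probe set 1415935_at read 8.23, 7.99 and 7.69 in deficient cells, against 8.75, 8.68 and 8.70 in controls. The controls lay within a narrow band and every deficient array lay below it, at a difference of -0.74 (SE 0.15, limma adjusted p = 0.108). Probe set 1431362_a_at read 7.07, 6.81 and 6.35 in deficient cells and 7.89, 7.22 and 7.29 in controls, again without overlap, at -0.73 (SE 0.24, limma adjusted p = 0.242). The group differences of the pair differed by -0.02 (95% interval -0.44 to 0.41).

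Olfm4, a secreted glycoprotein abundant in crypt base cells, read 11.81, 11.67 and 11.33 in deficient cells, against 12.03, 11.98 and 11.97 in controls. The groups did not overlap, and the deficient arrays spread more widely, at 11.60 ± 0.25 and 11.99 ± 0.03 (SD, n = 3 each). The difference of -0.39 (SE 0.14, 95% interval -0.72 to -0.06) was 1.31-fold lower and did not pass (limma adjusted p = 0.291).

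Ascl2, the transcription factor that sets the crypt stem cell state, had overlapping groups on all 3 of its probe sets. Its brightest, 1460514_s_at, read 6.88, 6.71 and 6.28 in deficient cells and 6.72, 6.61 and 6.64 in controls. Deficient replicates 1 and 3 lay on opposite sides of the controls, and the difference was -0.03 (95% interval -0.41 to 0.35, limma adjusted p = 0.949). Probe set 1432018_at read 5.25, 5.07 and 4.70 in deficient cells and 5.79, 5.37 and 5.09 in controls, at -0.41 (95% interval -0.89 to 0.08). Probe set 1422396_s_at, under the median of all probe sets, read 4.77, 4.19 and 3.91 in deficient cells and 4.64, 4.0 and 4.20 in controls, at 0.01 (95% interval -0.56 to 0.58). The suffix _s_at marks probes that may bind more than 1 transcript, so 2 of the 3 readings may not be Ascl2 alone.

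Tnfrsf19 encodes TROY, a TNF receptor family member of crypt base cells that is induced by Wnt, and it was measured by 3 dim or moderate probe sets with differences on both sides of 0. Probe set 1448147_at read 5.59, 5.01 and 4.50 in deficient cells and 5.54, 5.43 and 5.59 in controls. Deficient replicate 1 stood among the controls while the other deficient arrays lay below them, at a difference of -0.49 (SE 0.25, limma adjusted p = 0.418). Probe set 1425212_a_at read 3.36, 4.01 and 3.98 in deficient cells and 4.21, 4.24 and 4.23 in controls, without overlap, at -0.44 (SE 0.18, limma adjusted p = 0.328). Probe set 1415921_a_at read 3.34, 3.12 and 3.65 in deficient cells and 3.14, 2.78 and 3.40 in controls, at 0.26 (95% interval -0.19 to 0.71). The brightest and this last probe set differed by -0.75 (95% interval -1.51 to 0.00) in their group differences, which did not pass (limma adjusted p = 0.44).

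RefSeq lists 2 starts for Tnfrsf19, and the 250 bases before each are shown because its probe sets had the widest spread of differences after those of Lgr5. Where the probes lie within the transcripts was not analysed here, so no probe set can be assigned to a start. The sequences come from RefSeq on GRCm38.p6, minus strand, and capitals mark a match to a TCF motif.
Tnfrsf19 at chr14:61037988-61038237: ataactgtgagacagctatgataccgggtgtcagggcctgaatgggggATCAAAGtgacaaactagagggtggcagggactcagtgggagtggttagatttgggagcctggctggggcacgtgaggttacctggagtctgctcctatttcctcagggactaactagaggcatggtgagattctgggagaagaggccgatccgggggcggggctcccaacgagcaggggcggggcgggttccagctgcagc
Tnfrsf19 at chr14:61046856-61047105: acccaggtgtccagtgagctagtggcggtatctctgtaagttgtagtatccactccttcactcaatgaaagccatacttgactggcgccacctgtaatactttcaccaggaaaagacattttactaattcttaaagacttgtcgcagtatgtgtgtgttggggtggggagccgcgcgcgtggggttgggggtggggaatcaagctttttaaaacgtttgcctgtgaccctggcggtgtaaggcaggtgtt

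The motif searched was CTTTGAA or CTTTGAT, the core that TCF proteins bind, on both strands of the 250 bases before each start. The match in the first window, 202 to 196 bases before the start, is CTTTGAT on the opposite strand. RefSeq windows were held for 7 of the 10 genes, 9 windows in all, and 1 of the 9 had a match, against 7.48% of 32851 windows of the same length. A match describes the letters in this window alone. Lgr5, Smoc2 and Znrf3 had no window in the table used.

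Among the feedback inhibitors, Rnf43, a membrane ubiquitin ligase that removes Wnt receptors, read 6.40, 6.69 and 6.93 in deficient cells, against 7.19, 7.67 and 7.17 in controls. The groups did not overlap, and control 2 stood above the rest. The difference was -0.67 (SE 0.19, 95% interval -1.10 to -0.24), or 1.59-fold lower, and did not pass (limma adjusted p = 0.194).

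Znrf3, the ligase that acts alongside RNF43, read 6.08, 6.73 and 5.63 in deficient cells on probe set 1435608_at, against 6.72, 6.93 and 7.12 in controls. Deficient replicate 2 lay 0.01 above the lowest control, and the other deficient arrays lay below all controls. The difference was -0.77 (SE 0.26, limma adjusted p = 0.254), with the widest spread among deficient arrays of the 17 probe sets, 6.15 ± 0.55, against 6.92 ± 0.20 in controls (SD, n = 3 each). The dimmer probe set 1437646_at read 3.94, 4.15 and 4.11 in deficient cells and 4.37, 4.32 and 4.02 in controls, at -0.17 (95% interval -0.48 to 0.15). The group differences of the pair differed by -0.61 (95% interval -1.27 to 0.06, limma adjusted p = 0.47).

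Axin2, the scaffold of the beta-catenin destruction complex that is widely used as a readout of Wnt signalling, read 7.91, 7.92 and 7.99 in deficient cells on probe set 1436845_at, against 8.0, 8.78 and 8.13 in controls. The groups did not overlap, but by 0.016 alone, and control 2 set most of the difference of -0.36 (95% interval -0.82 to 0.09, limma adjusted p = 0.455). Without control 2 the difference was -0.13. The dimmer probe set 1421341_at read 4.70, 4.58 and 4.02 in deficient cells and 4.86, 4.86 and 4.35 in controls, overlapping, at -0.25 (95% interval -0.75 to 0.24).

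Ephb3, a receptor for ephrin-B ligands that holds cells in position near the crypt base, read 6.86, 6.40 and 6.55 in deficient cells, against 7.19, 7.50 and 7.16 in controls. The groups did not overlap. The difference was -0.68 (SE 0.16, 95% interval -1.05 to -0.32), or 1.61-fold lower, and did not pass (limma adjusted p = 0.139).

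**Figure D2:**
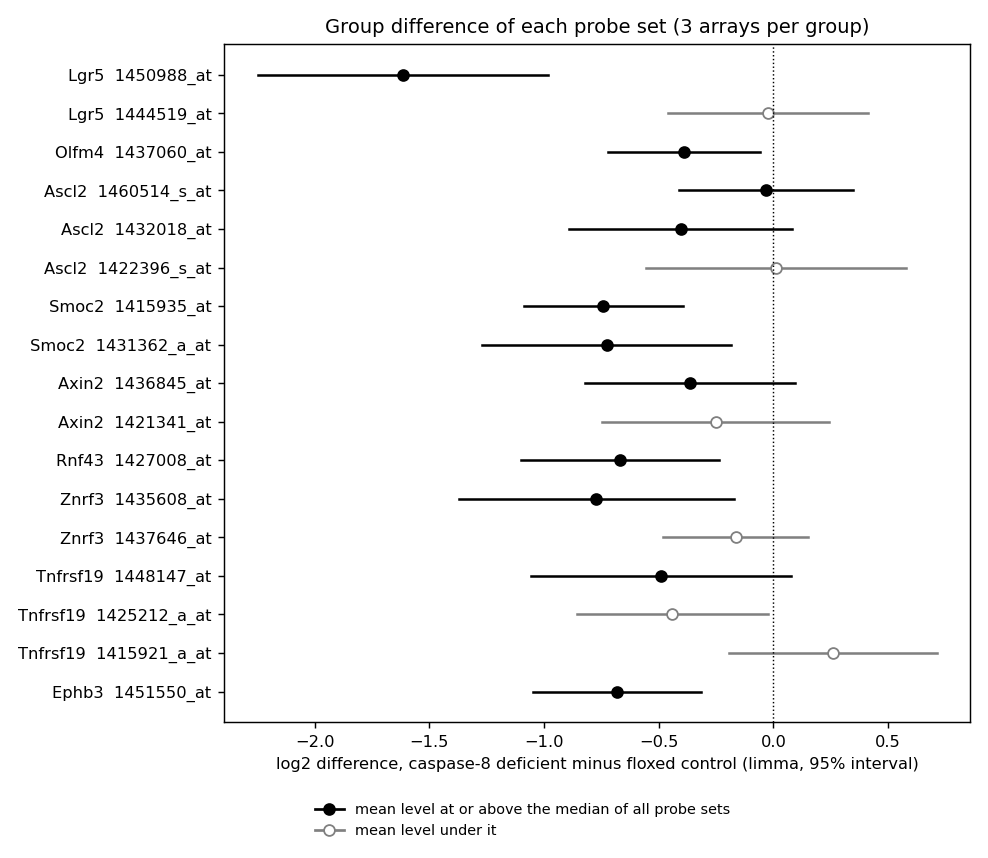
Log2 difference, caspase-8 deficient minus floxed control, of each of the 17 probe sets, with 95% intervals from limma; filled points are probe sets with a mean level at or above the median of all probe sets and open points those under it. The Lgr5 probe set 1450988_at stands apart at -1.62, and 5 of the 6 open points have intervals that include 0.

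Probe sets of a gene were set against each other in 8 pairs from 6 genes. Of these 8 pairs, 0 passed in limma and 1, that of Lgr5, had an unadjusted p under 0.05, while 0.0179% of all 16752 pairs passed. The 17 probe sets were also split at the median level of all probe sets. The 11 with a mean at or above the median of all probe sets had a median difference of -0.67, and in 7 of them the groups did not overlap. The 6 under it had a median difference of -0.09, with 1 that did not overlap. Among the 11, Olfm4, the brightest, stood at -0.39 and Lgr5, at a lower level, at -1.62. Over all probe sets at or above that level the median difference was -0.02, and 14.6% were lower without overlap. The part of signal level in the differences between probe sets of a gene was not tested.

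Deficient replicate 3 stood lowest of the deficient arrays in 10 of the 17 probe sets, and in 6 of the 9 brightest. The median deviation of the 9 brightest probe sets from the control mean was -0.43, -0.52 and -0.74 on deficient arrays 1, 2 and 3, and -0.03, 0.01 and -0.02 on control arrays 1, 2 and 3. Rnf43 and Axin2 did not share this order, with replicate 3 the highest deficient array for both. All 3 deficient arrays lay below control 3 in 7 of the 9 brightest probe sets, the exceptions being Ascl2 and Tnfrsf19, and did so in 25.7% of all genes by the brightest probe set. Over all probe sets of the genes described the count was 9 of 17, against 24.4% of the whole table. Taking the Gapdh difference as a covariate, all 9 remained below 0, with a median of -0.50, and without controls 1 and 2 all 9 did so, with a median of -0.56. Lgr5 was then at -1.25 in both settings (limma adjusted p = 0.48 and 0.841).

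**Figure D3:**
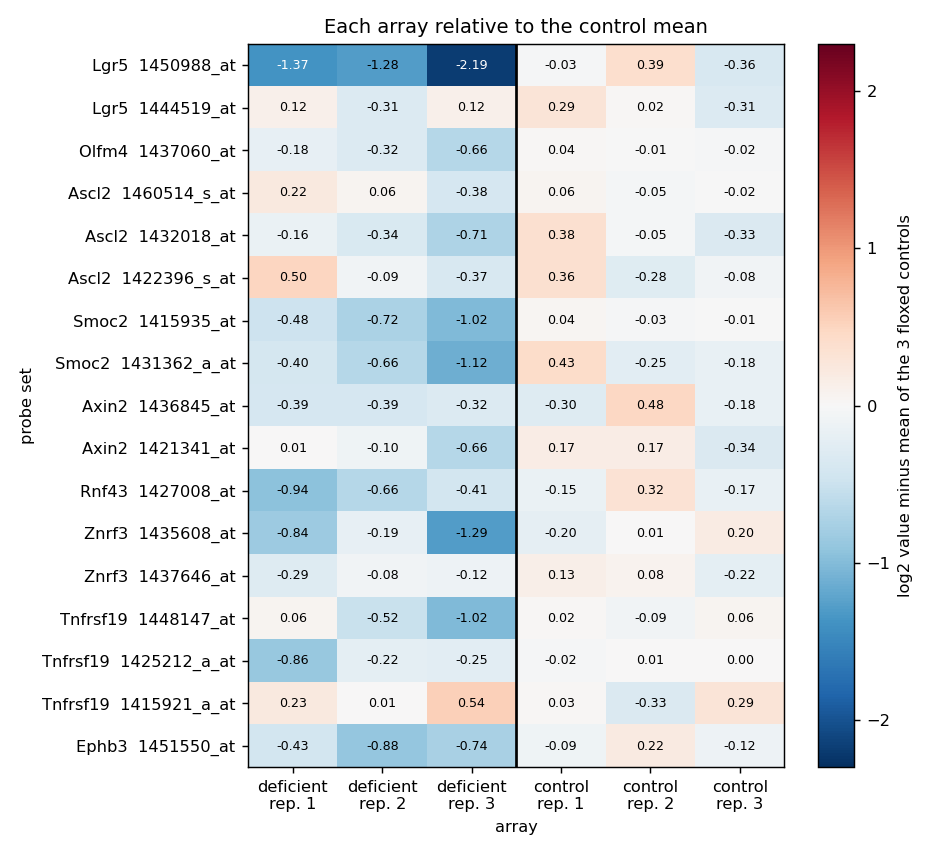
Log2 value of each probe set (rows) on each array (columns) minus the mean of the 3 floxed controls, with deficient arrays left of the line and controls right of it. On deficient replicate 3 the Lgr5 probe set 1450988_at stands at -2.19, and 6 of the 9 brightest probe sets are lowest there among the deficient arrays.

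The genes were then set beside lists of other genes of the crypt and the pathway, each gene by its brightest probe set. Among all 18193 genes so represented, 0.286% fell and 0.154% rose, 11.2% were lower without overlap and 46.1% had a difference below 0. At an unadjusted p under 0.05 in limma, 1535 of the 18193 were lower and 1462 higher. In the list of other crypt base and progenitor genes, 1 of 14 fell and none of the other 13 passed. The median was -0.54, and 8 were lower without overlap. The 1 that fell was Sox9, a transcription factor of crypt cells, which read 6.48, 6.48 and 6.21 in deficient cells, against 7.22, 7.32 and 7.24 in controls (-0.87, SE 0.12, limma adjusted p = 0.037). Its other probe sets stood at -0.86 and -0.36, and without each single array in turn Sox9 did not pass (limma adjusted p = 0.0546 to 0.195).

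In the list of other Wnt-induced genes, 1 of 12 fell and none of the other 11 passed. The median was -0.01, and 6 of the 12 had a difference below 0. Bambi, a pseudoreceptor that dampens TGF-beta signals, fell and read 5.56, 4.89 and 4.68 in deficient cells, against 6.55, 6.44 and 6.55 in controls (-1.47, SE 0.21, limma adjusted p = 0.0443). Bambi passed without deficient replicate 1 but not without any other single array (limma adjusted p = 0.109 to 0.236). For Prox1, a homeobox factor, the brightest probe set stood at -0.33 and 1421336_at at 0.05. All 3 of its probe sets read under 4.87, the median of all probe sets. The dimmer 1437894_at fell by 1.32 (limma adjusted p = 0.00705). That probe set read 2.32, 2.62 and 2.49 in deficient cells and 3.74, 3.92 and 3.74 in controls, and it did not pass without deficient replicate 2, deficient replicate 3 or control 1 (limma adjusted p = 0.0563 to 0.0659). In this list Notum, Nkd1 and Sp5 stood at 0.15, 0.17 and 0.37, and Apcdd1, Wif1 and Ets2 at 0.03, 0.05 and 0.23. Myc, Lef1 and Dkk3 stood at -0.31, -0.05 and -0.14 and the cell cycle gene Ccnd1 at -1.08. None of these passed. Notum and Nkd1 averaged 4.73 and 4.94 in controls, near the median of all probe sets.

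Of 10 genes of the R-spondin and LGR axis 0 passed in limma (3 at an unadjusted p under 0.05, of which 2 lower), with a median of 0.00. Lgr4, the LGR5 relative found more widely in the epithelium, stood at -0.46 (limma adjusted p = 0.149), while its dim probe set stood at 0.06. The Wnt receptor Fzd7 stood at 0.58 (limma adjusted p = 0.247), while its dimmer probe set stood at -0.06. Of 9 genes of the destruction complex and the TCF factors 0 passed in limma (1 at an unadjusted p under 0.05, higher), with a median of -0.04, where Tcf7l1, a TCF repressor, stood at 0.47 and Axin1, the constitutive relative of Axin2, at -0.10. Of 8 Eph receptors and ephrin-B ligands 0 passed in limma (3 at an unadjusted p under 0.05, of which 1 lower), with a median of -0.07. Epha2 stood at 0.58 and Ephb4, the relative of Ephb3, at -0.71.

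Of 11 proliferation genes 0 passed in limma, and 8 were lower at an unadjusted p under 0.05. All 11 had a difference below 0, with a median of -0.49, and 9 were lower without overlap. Kif11, a spindle motor, and Mcm6, a subunit of the replicative helicase, each stood at -0.53. The mean level of this list was 8.42 to 8.65 on deficient arrays and 8.85 to 9.12 on controls, lowest of the controls on control 3. For the 9 genes described here it was 6.89 to 7.30 on deficient arrays and 7.71 to 7.92 on controls. The part of fewer dividing crypt cells in the difference of the stem cell genes was not tested.

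**Figure D4:**
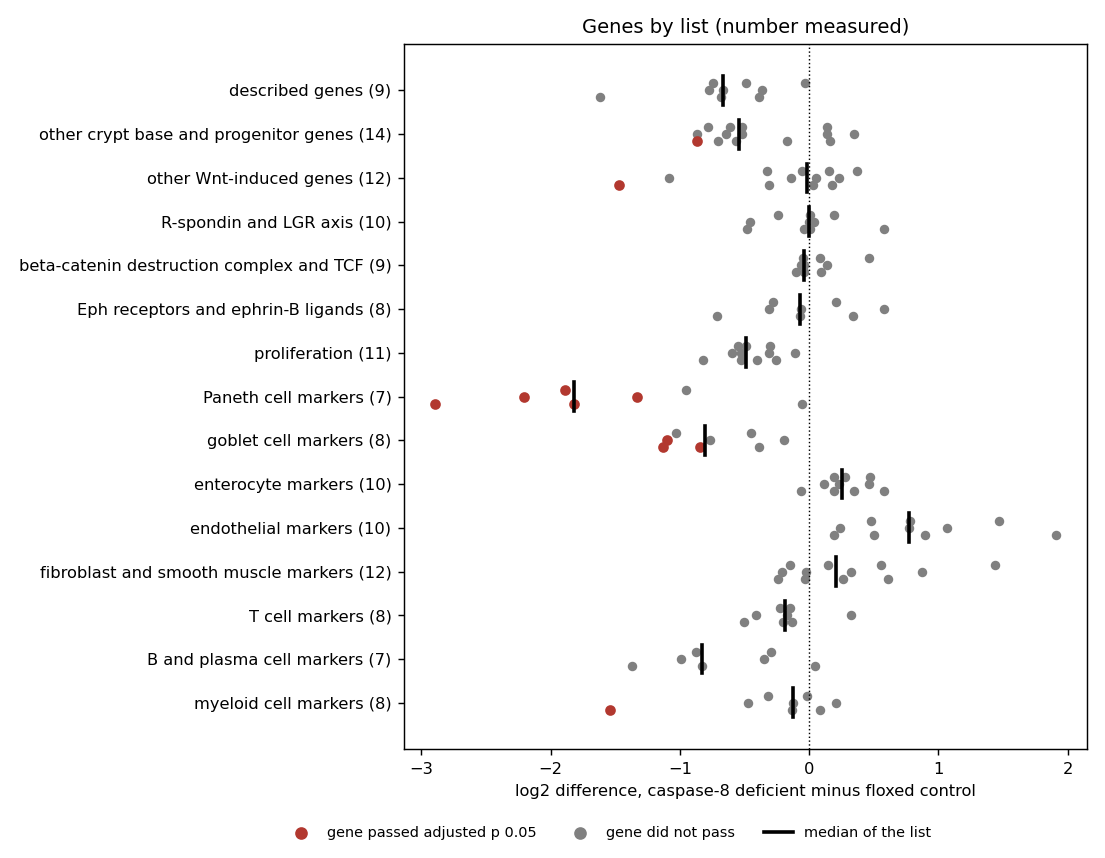
Log2 difference, caspase-8 deficient minus floxed control, of each measured gene (points, red where the gene passed) by list, with the list's median as a bar. The crypt base and Wnt-induced genes have a median of -0.67 and the other crypt base genes -0.54, while the other Wnt-induced genes, the R-spondin and LGR axis and the destruction complex have medians between -0.04 and 0.00. On control arrays the mean level was 7.71 to 7.92 for the crypt base and Wnt-induced genes. It was 5.86 to 6.01 for the other Wnt-induced genes and 5.87 to 5.98 for the R-spondin and LGR axis. For the destruction complex it was 8.54 to 8.71. The part of signal level in these medians was not tested.

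Markers of other cell types were read in the same way. Among Paneth cell markers 5 of 7 fell and the other 2 did not pass, with a median of -1.82 and mean levels of 8.75 to 9.11 on deficient arrays against 10.34 to 10.72 on controls. Those that fell were the angiogenin Ang4 (-2.89), the intelectin Itln1 (-2.20), the phospholipase Pla2g2a (-1.89), the protease Mmp7 (-1.82) and the lysozyme Lyz1 (-1.33). Only Ang4 passed with each single array left out in turn (limma adjusted p at most 0.0376). The highest adjusted p was 0.0528 for Itln1 and 0.0563 for Lyz1, both without deficient replicate 2, and 0.154 for Pla2g2a and 0.211 for Mmp7, both without control 1. Itln1 and Lyz1 also missed the threshold without control 1, and Pla2g2a and Mmp7 passed only when control 2 was the array left out. Of 8 goblet cell markers 3 fell, Spink4 (-1.13), Clca1 (-1.10) and the secretory lineage factor Atoh1 (-0.84), and 5 did not pass, with a median of -0.80. Clca1 on its brightest probe set and Atoh1 did not pass whichever single array was left out (limma adjusted p = 0.0600 to 0.185 and 0.0683 to 0.212). The dimmer Clca1 probe set 1459889_at stood at -1.47 (limma adjusted p = 0.00705, and 0.0126 to 0.0632 with 1 array left out). Spink4 passed without deficient replicate 1 or control 2 and not without the other arrays (limma adjusted p up to 0.154). Goblet markers averaged 11.41 to 11.54 on deficient arrays and 12.17 to 12.26 on controls. Of 10 enterocyte markers 0 passed in limma (5 higher at an unadjusted p under 0.05), with a median of 0.26, and 9 of 10 stood above 0, with Treh at 0.58 and Mttp at 0.47.

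Of 10 endothelial markers 0 passed in limma (0 at an unadjusted p under 0.05), and their mean level was 6.93 on deficient replicate 1 and 4.48 to 4.65 on deficient replicates 2 and 3 and controls 1 and 3, with control 2 at 4.29. Pecam1 and Cldn5 stood at 0.78 and 0.77. Without deficient replicate 1 the differences of the 9 brightest probe sets described here were all below 0, with a median of -0.74. Of 12 fibroblast and smooth muscle markers 0 passed in limma (2 higher at an unadjusted p under 0.05), with a median of 0.21 and 5 of the 12 below 0. Their mean levels were 4.70 to 5.76 on deficient arrays and 4.67 to 5.22 on controls. Pdgfra stood at 0.61 and Acta2 at 0.87, and their dimmer probe sets at 0.78 and 0.15 for Pdgfra and 0.19 and 0.11 for Acta2. Of 8 T cell markers (median -0.19) and 7 B and plasma cell markers (median -0.83) 0 passed in limma. At an unadjusted p under 0.05 there were 0 T cell markers and 2 B and plasma cell markers, both lower. Cd3g and Gzmb stood at -0.41 and -0.51, and Pou2af1 and Cd79b at -1.37 and -0.83, both highest on control 3. T cell markers averaged 7.80 to 8.45 on deficient arrays and 8.08 to 8.54 on controls, and B and plasma cell markers 4.81 to 5.08 on deficient arrays and 5.20 to 6.38 on controls. Of 8 myeloid markers Lyz2 fell by 1.54, a close relative of the Paneth gene Lyz1, and 7 did not pass (median -0.13), at 6.24 to 6.38 on deficient arrays and 6.32 to 6.76 on controls. Lyz2 did not pass without deficient replicate 2, deficient replicate 3 or control 1 (limma adjusted p = 0.0541 to 0.0572). No marker is at 0 on these arrays, which give a background reading for every probe set. The part of these cells in the differences of the stem cell and Wnt-induced genes was not tested.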

How the data were processed

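RNA of intestinal epithelial cells was read on 6 arrays, grouped by their titles. Per the submitters' processing notes, the log2 values that the authors deposited come from robust multi-array averaging (RMA). The RMA version and options are not given. RMA gives all arrays nearly the same distribution and shrinks differences of dim probe sets. Detection calls were not part of the values, and precision is limited by having 6 arrays. Of 45101 probe sets, 64 manufacturer controls were left out. The platform annotation, some of it outdated, names 1 gene for 34945 of the rest, several for 932 and none for 9160. Those with several or none were tested but not named.

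Deficient minus control was fitted by group alone in limma 3.58.1 (lmFit, eBayes) under R 4.3.3 over 45037 probe sets, with Benjamini-Hochberg adjustment, a threshold of 0.05 and two-sided tests. For genes with several probe sets, the within-array difference between the brightest and each other probe set was fitted alike over 16752 pairs. The labels call the samples biological replicates without naming the animals. The limma p-values therefore set the group difference against the spread between these samples, which limma moderates with that of all probe sets. Lists are described by the brightest probe set of each gene, with counts and medians. Members, lists and alternatives were chosen with earlier results of these data known. Outside the 10 genes, the rule names the genes of each list that passed (at most 6), or else the 2 with the smallest p, and Casp8. Ccnd1, Notum, Nkd1, Sp5, Apcdd1, Wif1, Ets2, Myc, Lef1, Dkk3, Vil1 and the genes named only in the closing section were chosen after their values were seen.

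On simulated data for this comparison, with 200 of 45037 probe sets changed in each of 10 draws, the fit called 51.7% of log2 changes of size 1 and 90.7% of those of size 2, while 3.57% of calls were false. For the 16752 pairs the shares were 26.8% and 89.3%, with 4.77% of calls false. The simulated noise was independent between probe sets and held no array-wide difference such as that of Gapdh. These shares may therefore not hold for the arrays themselves. Tables and plots used Python 3.11.15, pandas 2.3.3, numpy 2.4.6 and matplotlib 3.10.9. The promoter sequences are those of RefSeq on GRCm38.p6, and no build is named for the arrays. Alternatives were each array left out, a replicate block, 1 value per gene, filters, variance and weight settings, normalization and RNA quality.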

Additional observations from a re-analysis of the deposited data

How the results depend on the processing

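The number of arrays limits what can be called, and with no detection calls the signal over background is unknown. The 143 probe sets called over the whole table became 277 without dim probe sets, 242 with a variance trend and robust prior, 1180 with array weights, 26 with the Gapdh difference as a covariate and 1 without controls 1 and 2. Leaving out 1 array at a time gave 18 (without control 1) to 190 (without deficient replicate 1), and 19, 35, 65 and 87 without deficient replicate 2, deficient replicate 3, control 2 and control 3. Of the 17 probe sets described, 0 passed in the fit reported and with any single array left out. In 4 settings 1 passed, Lgr5 1450988_at. These were the replicate block (limma adjusted p = 0.0202), 1 value per gene by the brightest probe set (0.0488), no dim probe sets (0.0415) and the variance trend (0.0412). By the mean of its probe sets Lgr5 did not pass (limma adjusted p = 0.0881). With array weights 3 passed, Lgr5 (0.0227), Smoc2 1415935_at (0.0239) and Ephb3 (0.0363). Over the alternatives of Lgr5 the adjusted p ran to 0.841, and leaving out 1 array gave 0.0792 to 0.295 at differences of -1.80 to -1.33.

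The labels do not say whether the replicate numbers pair the samples. Deviations of same-numbered arrays correlated at 0.074, 0.084 and -0.055, and replicates 1 and 2 but not 3 correlated best with their own number. With 3 arrays per group these correlations cannot settle whether the samples are paired. With the block, 112 were the probe sets called over the whole table. Of the within-gene pairs 3 passed, those of Il1rn, Pla2g4c and Samd5. The number was 2 with the block, 0 without dim probe sets, 7 with the variance trend, 65 with array weights, 5 after quantile normalization, 7 over all pairs of a gene and 1 to 6 with 1 array left out.

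Every reversal was of a value that had not passed, and the cause was not tested. With the Gapdh covariate Tnfrsf19 1415921_a_at stood at -0.033, Axin2 1421341_at at 0.035 and Lgr5 1444519_at at 0.20. Without controls 1 and 2 they stood at -0.035, 0.086 and 0.29, and Znrf3 1437646_at at 0.052. Array weights gave -0.23 for Ascl2 1422396_s_at, and pair differences of 0.21 for Ascl2 (1460514_s_at minus 1422396_s_at), 0.17 for Axin2 and 0.21 for Smoc2. Quantile normalization gave 0.034 for Ascl2 1460514_s_at, 0.030 for the same Ascl2 pair and 0.00924 for the pair Tnfrsf19 1448147_at minus 1425212_a_at. With 1 array left out, Ascl2 1422396_s_at ran from -0.23 to 0.20, Lgr5 1444519_at from -0.18 to 0.12 and Ascl2 1460514_s_at from -0.16 to 0.14. The pair differences ran from -0.19 to 0.072 for Ascl2, -0.35 to 0.042 for Axin2, -0.21 to 0.10 for Smoc2 and -0.54 to 0.31 for Tnfrsf19. Of 338 alternative values of the described probe sets and pairs, 302 kept direction and side of the threshold, 6 newly passed and 30 reversed. The brightest probe sets were below 0 for all 9 genes except Ascl2 after quantile normalization and without deficient replicate 3, and for all 8 left without _s_at and _x_at probe sets.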
